A study of Rattus norvegicus with 6 samples.

Results

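The genes described here are cell cycle and proliferation genes, a set of 43 gene symbols chosen by name, of which 41 were found among the 21655 gene names of the deposited transcript table. E2f1 and Ccnb2 were not analysed here. The rows of a symbol were summed in each sample, and all 41 genes had FPKM (fragments per kilobase of transcript, scaled to the mapped total of the library) above 0 in at least 3 of the 6 samples, the condition for a test that 19645 gene names met. The samples were lungs of Sprague-Dawley rats, an outbred laboratory strain, that were 7 weeks old at the start. In the pulmonary fibrosis (PF) model group, 3 rats received bleomycin at 7 mg/kg in a single intratracheal instillation, and 3 control rats received an equal volume of saline. Bleomycin breaks DNA and is widely used to induce lung scarring. Lungs were collected on day 28, and RNA depleted of rRNA was sequenced from 1 library per rat, with between 35778631 and 41112682 reads per library estimated from the deposited coverage. The samples are bulk lung, so fewer cells of a type and less RNA per cell cannot be told apart, and a single late day stands for the whole course of the injury.

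The cell cycle runs from the loading of replication origins in G1 through DNA synthesis in S phase to chromosome segregation and cell division in mitosis. Many of its genes are transcribed in waves. Genes of the G1/S wave are driven by E2F factors and are held off in resting cells by the retinoblastoma family, and genes of the G2 and mitotic wave are controlled by the MuvB complex with B-Myb and FoxM1 through the cell cycle homology region (CHR), often with CCAAT boxes bound by NF-Y beside it. In an adult lung most cells are resting, and the transcripts of these genes come from the minority of cells that divide, among them immune cells, fibroblasts, endothelial cells and the alveolar type 2 cells that renew the epithelium.

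The promoters of the set show these waves as letters. Windows of 250 bases before and 50 bases after the start of the gene, from RefSeq on build GRCr8, were found for 32 of the 41 genes. They were not found for Aurkb, Ccna2, Ccne2, Cdc6, Mcm4, Racgap1, Rrm2, Tpx2 and Ube2c. On both strands, the windows were searched for the CHR word TTTGAA, for the E2F words TTTGGCGC, TTTCCCGC, TTTGCCGC and TTTCGCGC, for CCAAT and for the GC box GGGCGG, with overlapping matches counted. The CHR word was in 18 windows of the set (56.2%), against 12.6% of the 13255 windows of genes tested and 18.3% of all 33469 windows. An E2F word was in 8 windows (25.0%), against 3.61% of the windows of genes tested and 2.14% of all. CCAAT was in 68.8% of the windows of the set and 36.9% of those of genes tested, and the GC box in 75.0% and 56.5%. A match describes the letters of the window and does not show a bound site.

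The words largely divided the set by phase. Of the 9 windows of genes of licensing, G1/S and DNA synthesis, 7 held an E2F word (77.8%) and 1 the CHR word (11.1%). Of the 23 windows of G2 and mitotic genes, 17 held the CHR word (73.9%) and 1 an E2F word (4.35%). The CHR word and CCAAT stood together in 13 of these 23 windows (56.5%), in 0 of the 9 windows of the first group, and in 5.02% of the windows of genes tested. All 5 windows found for Mcm2 to Mcm7 held an E2F word. Mcm2 and Cdk1 were exceptions that held the word of the other group. Mcm2 was the only licensing gene with the CHR word, and Cdk1 the only G2 or mitotic gene with an E2F word. Ccne1 and Pcna held no E2F word, and Ccnb1, Cenpe, Kif11, Kif20a, Aurka and Bub1 held no CHR word. In 17 of the 18 windows the first base of a CHR word lay within 100 bases before the start or after it, with a median position of -23 over 22 matches (negative positions lie before the start), whereas the median position of CCAAT was -94.5. The exception was again Mcm2, in which the words lie farther upstream.

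**Figure D1:**
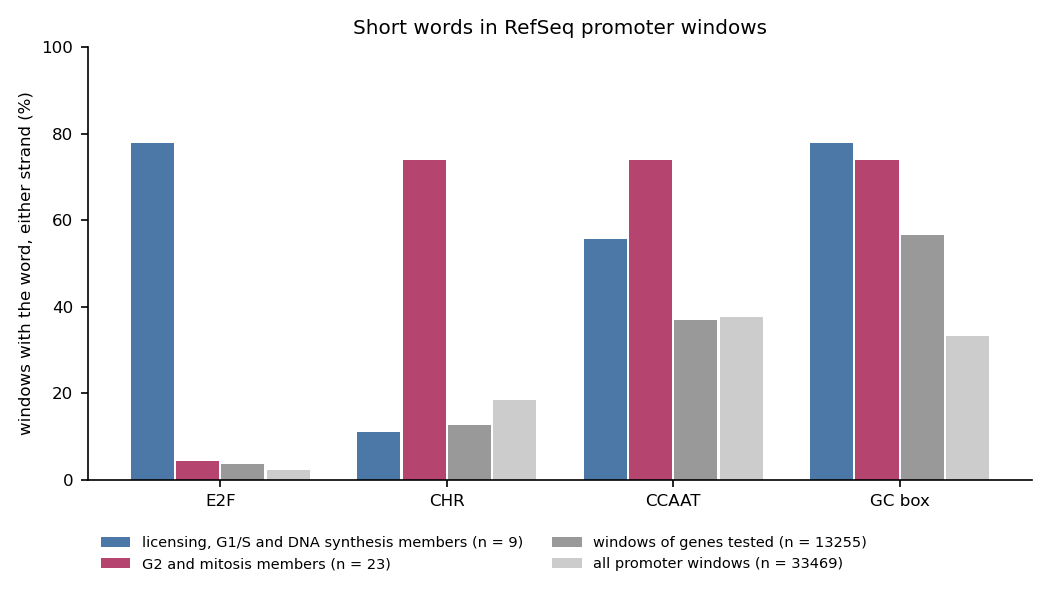
Percentage of RefSeq promoter windows of 300 bases (vertical axis) that hold an E2F word, the CHR word, CCAAT or a GC box on either strand, for 9 licensing, G1/S and DNA synthesis genes, 23 G2 and mitotic genes, the windows of genes tested and all windows. E2F words are most frequent in the first group (77.8%) and the CHR word in the second (73.9%).

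The 250 bases upstream of 4 genes are shown for the 2 patterns and the exceptions. Prc1 had the smallest p of the set and carries the layout of the mitotic wave, Mcm2 stands for licensing and holds 2 overlapping E2F words near its 3′ end, 1 on each strand, Cdk1 holds all 3 kinds of word, and Mki67 encodes the proliferation marker Ki-67. Capitals mark the CHR, E2F and CCAAT words on either strand. The GRCr8 positions are chr1:143659231-143659480 on the plus strand for Prc1, chr4:122918095-122918344 on the minus strand for Mcm2, chr20:19265043-19265292 on the plus strand for Cdk1 and chr1:199952594-199952843 on the minus strand for Mki67. The transcript coordinates of the deposited table are of another build, which is not named in the sources used here.
Prc1: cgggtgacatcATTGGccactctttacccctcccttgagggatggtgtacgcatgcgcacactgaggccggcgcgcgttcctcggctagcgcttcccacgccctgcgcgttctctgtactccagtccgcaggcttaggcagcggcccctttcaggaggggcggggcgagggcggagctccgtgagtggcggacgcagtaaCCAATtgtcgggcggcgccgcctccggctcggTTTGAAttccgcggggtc
Mcm2: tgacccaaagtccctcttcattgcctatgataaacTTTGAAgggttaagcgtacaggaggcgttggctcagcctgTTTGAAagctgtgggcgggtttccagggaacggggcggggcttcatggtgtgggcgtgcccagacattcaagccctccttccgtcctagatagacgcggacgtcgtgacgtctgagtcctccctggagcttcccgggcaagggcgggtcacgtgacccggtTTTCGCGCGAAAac
Cdk1: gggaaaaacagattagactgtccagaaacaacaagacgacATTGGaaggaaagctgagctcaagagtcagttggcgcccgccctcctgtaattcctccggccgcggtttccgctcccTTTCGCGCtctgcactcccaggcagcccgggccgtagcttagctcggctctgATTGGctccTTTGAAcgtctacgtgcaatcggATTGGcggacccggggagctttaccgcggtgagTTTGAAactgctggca
Mki67: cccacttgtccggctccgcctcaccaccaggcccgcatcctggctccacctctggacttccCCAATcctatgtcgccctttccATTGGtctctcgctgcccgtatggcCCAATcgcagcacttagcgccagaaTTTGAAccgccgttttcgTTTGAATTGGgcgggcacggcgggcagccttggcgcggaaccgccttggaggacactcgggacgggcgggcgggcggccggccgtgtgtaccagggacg

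The first question was at what level a lung expresses these genes on day 28. The levels were low. The median over the set of the mean FPKM of the 6 samples was 1.60, against 3.99 over all genes tested. The sliding clamp gene Pcna had the highest mean, 12.8 FPKM, followed by the replicative helicase subunit Mcm7 at 8.30 FPKM and the thymidylate synthase gene Tyms at 5.12 FPKM, and no other gene of the set was above 5 FPKM. At the low end, Ccne1 and the kinetochore motor Cenpe both had a mean of 0.202 FPKM, 16 genes had a mean below 1 FPKM, and 12 were below 1 FPKM in each sample. All 41 genes were above 0 in all 6 samples. By role, the median of the mean FPKM was 5.12 for the 3 DNA synthesis genes, 2.66 for the 10 genes of origin licensing and G1/S, 0.921 for the 9 genes of the spindle and cytokinesis and 0.476 for the 6 genes of the kinetochore and the chromosomal passenger complex.

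**Figure D2:**
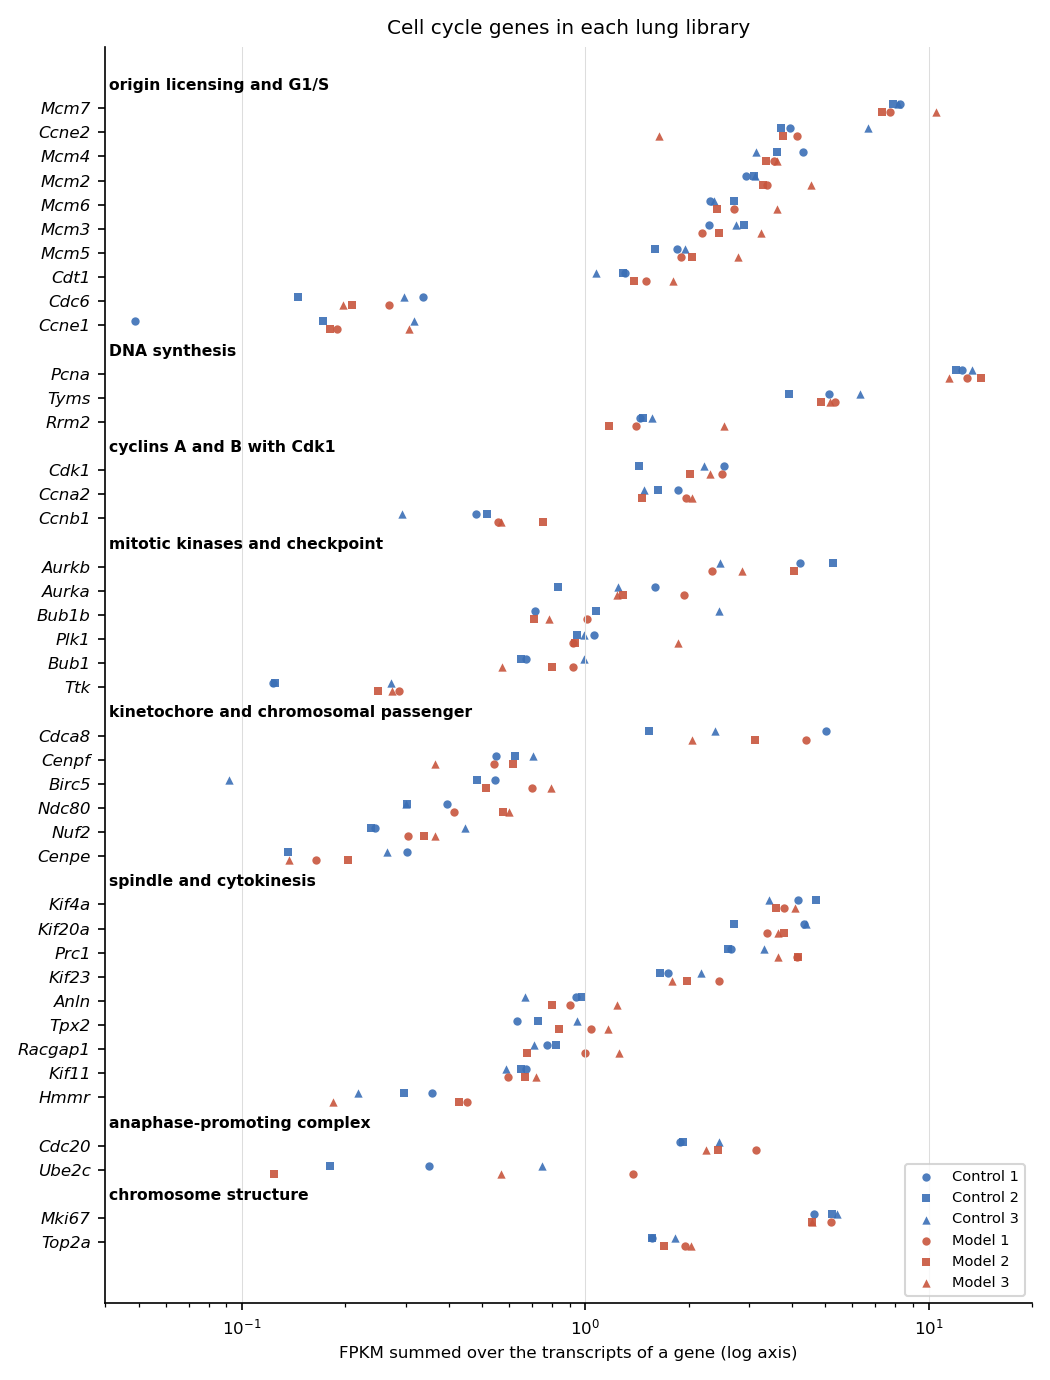
FPKM of each of the 41 genes in each library on a log axis, grouped by role and ordered by mean level within a role, with control samples in blue and model samples in red and a marker shape for each replicate. Levels run from 0.0488 FPKM (Ccne1, control 1) to 14.2 FPKM (Pcna, model 2), and the colours overlap for 36 of the 41 genes.

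The second question was whether the level of these genes differed between PF model and control lungs. No gene of the set passed the test. With limma on log2(FPKM + 1) and Benjamini-Hochberg adjustment over 19645 genes, 0 of the 41 genes had an adjusted p below 0.05, their adjusted p was at least 0.933, and 2 of 19645 genes (0.0102%) were called in all. Without adjustment, 2 genes of the set, Prc1 and Ndc80, had p at or below 0.05 (4.88%), against 4.91% of all genes tested. The thresholds of the study, unadjusted p at or below 0.05 and a group mean FPKM at least 1 log2 unit apart, were passed by 0 of the 41 genes and by 1.52% of all genes tested, which were 130 genes higher and 168 lower in the model (196 and 141 after rescaling to TPM). In 5 of the 41 genes (12.2%) each model sample lay above each control sample, a pattern that 4.82% of all genes tested showed, and in 0 of the 41 each model sample lay below, against 5.87%.

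The group mean was higher in the model for 28 of the 41 genes (68.3%), against 47.7% of all genes tested. The median log2 ratio of group means over the set was 0.16, and over all genes tested it was -0.01. The genes are not independent replicates, and leaving out a library from either group could lower or raise this median. Without model 3 it was 0.06, with 24 of 41 genes higher in the model, and without control 2 it was 0.08, with 26 of 41 higher. Without model 2 it was 0.22, with 29 of 41 higher, and without control 3 it was 0.21, with 30 of 41 higher. Without model 1 it was 0.11 and without control 1 it was 0.17. After rescaling to TPM it was 0.23, where the median limma log2 fold change of all genes also moved, from -0.01 to 0.05. Summed over the 41 genes, the control libraries held 90.2 ± 5.27 FPKM and the model libraries 93.7 ± 3.17 FPKM (SD, n = 3 per group), and the sums of the libraries overlapped, from 84.3 to 94.6 in control and from 90.0 to 95.6 in model samples. Over annotated transcripts alone the sums were 71.0 ± 2.15 and 76.3 ± 4.32 FPKM (SD, n = 3 per group). These sums did not overlap, from 68.7 to 72.9 in control and from 73.1 to 81.2 in model samples, although control 3 and model 2 differed by little.

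The precision of the comparison can be given for each gene. The 95% interval of the limma log2 fold change had a median width of 0.65 over the set and 0.62 over all genes tested. The scale of log2(FPKM + 1) understates the change in FPKM, and most so for genes below about 1 FPKM. Prc1, at a mean of 3.42 FPKM, had a log2 ratio of means of 0.48 and a limma log2 fold change of 0.37. For Ttk, at 0.221 FPKM, these were 0.64 and 0.12. On this scale the bounds of the 41 intervals ran down to -1.24 (Ccne2), and the intervals of 2 genes, Ccne2 and Cdca8, included 1 or -1. For the low genes, an interval without 1 or -1 does not exclude a change of 1 log2 unit in FPKM. The estimated reads per gene, as means over the samples, had a median of 143 over the set, against 331 over all genes tested. These means ran from 18.3 (Ccne1) to 1980 (Mki67). The lowest estimate in a single sample was 3.91 reads (Birc5, control 3). Counted as read pairs, each 2 reads, counting error alone gives a median coefficient of variation of 11.8%, and the median found between replicates was 19.9%, above the counting error in 39 of the 41 genes.

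**Figure D3:**
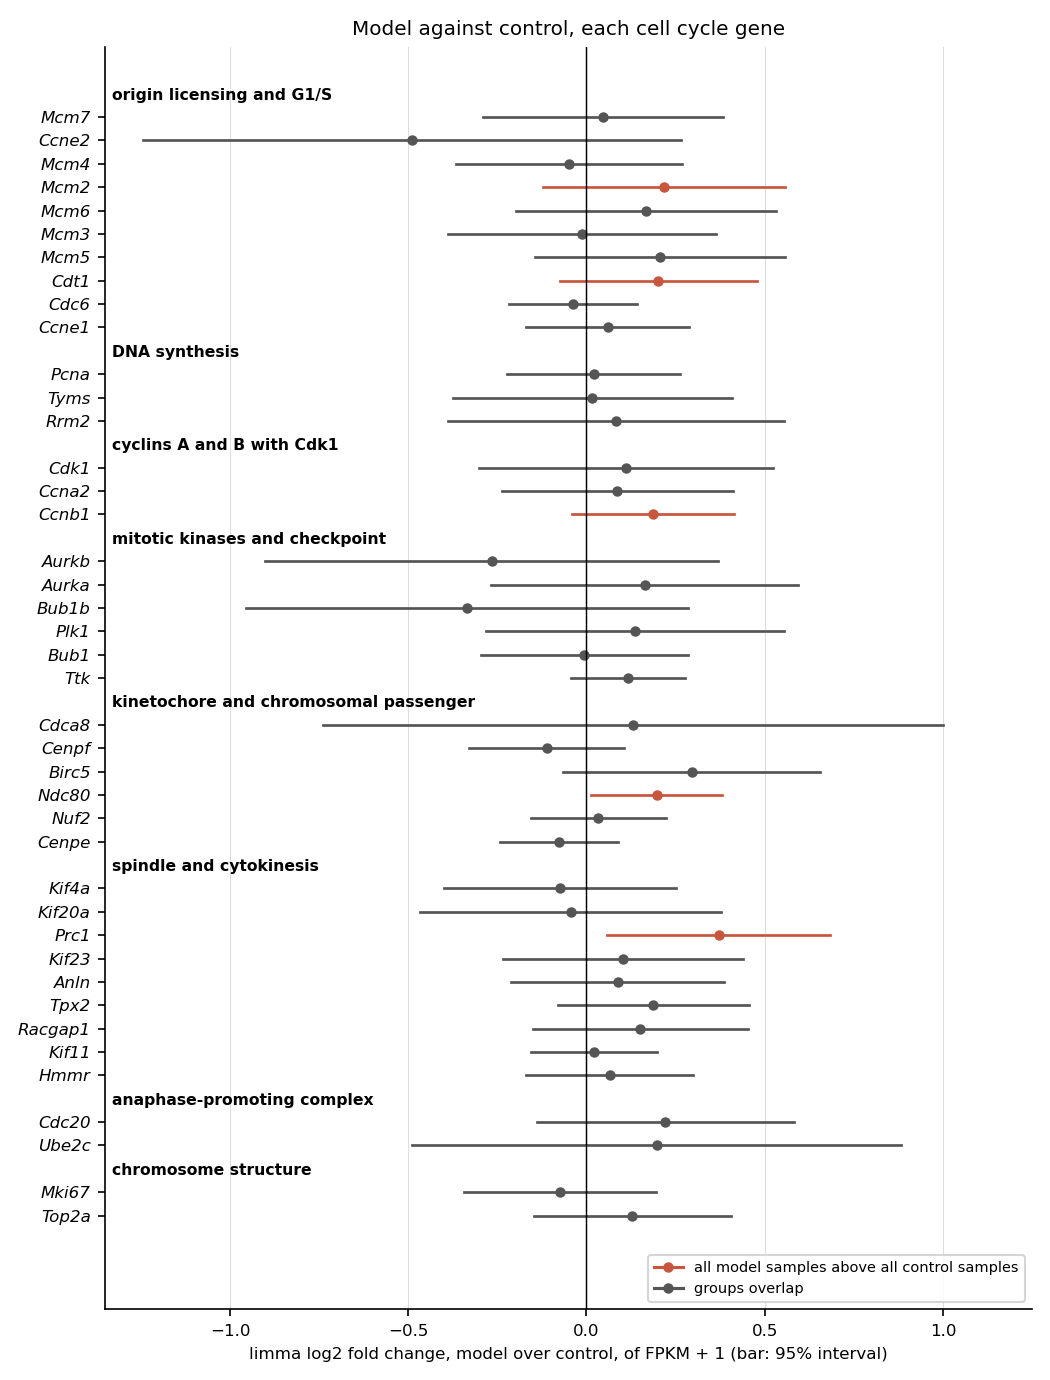
limma log2 fold change of FPKM + 1, model over control (points), with its 95% interval (bars) for each of the 41 genes, grouped by role. Red marks the 5 genes in which all model samples lay above all control samples, and the interval leaves out 0 only for Prc1 and Ndc80, neither of which had an adjusted p below 0.05.

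Origin licensing begins with Cdt1 and Cdc6, which load the Mcm2 to Mcm7 helicase onto DNA. Cdt1 (chromosome 19, 55381565 to 55386511 in the coordinates of the files) was at 1.31, 1.29 and 1.08 FPKM in control 1 to 3 and at 1.50, 1.38 and 1.80 FPKM in model 1 to 3. The groups did not overlap and the log2 ratio of means was 0.35 (adjusted p = 0.933 in limma). Cdc6 was at 0.336, 0.146 and 0.297 FPKM in control and 0.269, 0.209 and 0.196 FPKM in model samples, which overlapped.

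Among the helicase subunits, Mcm2 (chromosome 4, 120825699 to 120840111) was at 2.93, 3.09 and 3.13 FPKM in control and 3.38, 3.30 and 4.55 FPKM in model samples. Its groups did not overlap, with a log2 ratio of 0.29 (adjusted p = 0.933 in limma), and without model 3 the ratio was 0.13. Mcm7 was at 8.27, 7.89 and 8.15 FPKM in control and 7.73, 7.30 and 10.5 FPKM in model samples, so that model 3 lay above the controls and the other model samples below them. Group means in control and model samples were 2.65 ± 0.320 and 2.63 ± 0.559 FPKM for Mcm3, 3.69 ± 0.578 and 3.51 ± 0.130 FPKM for Mcm4, 1.80 ± 0.183 and 2.24 ± 0.473 FPKM for Mcm5, and 2.46 ± 0.212 and 2.91 ± 0.622 FPKM for Mcm6 (SD, n = 3 per group). All 4 of these genes overlapped between the groups.

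The E cyclins activate Cdk2 at the entry into S phase. Ccne2 was at 3.94, 3.71 and 6.64 FPKM in control and 4.13, 3.76 and 1.63 FPKM in model samples. It had the second lowest log2 ratio of the set, -0.59, and the widest downward interval, with control 3 high and model 3 low. Without control 3 the ratio was -0.27, as it was without model 3. Ccne1 was lower, at 0.179 ± 0.134 FPKM in control and 0.225 ± 0.0699 FPKM in model samples (SD, n = 3 per group).

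Of the DNA synthesis genes, Pcna, the clamp that holds polymerases on DNA, was at 12.5, 12.0 and 13.4 FPKM in control and 13.0, 14.2 and 11.5 FPKM in model samples. The groups overlapped widely, and the 95% interval of its limma log2 fold change ran from -0.22 to 0.26. The annotated Pcna transcript made up 77.2% of the sum over the samples. Its means were 9.28 ± 0.375 and 10.4 ± 1.87 FPKM (SD, n = 3 per group), in overlapping groups. Tyms, which makes thymidylate, had means of 5.12 ± 1.20 and 5.12 ± 0.226 FPKM, and Rrm2, the small subunit of ribonucleotide reductase, 1.49 ± 0.0643 and 1.70 ± 0.729 FPKM (SD, n = 3 per group). Rrm2 was at 2.53 FPKM in model 3 and between 1.17 and 1.57 FPKM in the other 5 samples. The Tyms sum includes an assembled transcript on the opposite strand, and without it the means were 3.58 and 3.91 FPKM.

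Cdk1 with cyclins A and B drives entry into mitosis. Cdk1 (chromosome 20, 20576377 to 20591549) was at 2.54, 1.44 and 2.22 FPKM in control and 2.50, 2.02 and 2.31 FPKM in model samples. The model values lay inside the range of the controls, the log2 ratio of means was 0.14, and without control 2 it was -0.06. Ccnb1, which encodes the mitotic cyclin B1, was at 0.481, 0.517 and 0.292 FPKM in control and 0.557, 0.753 and 0.569 FPKM in model samples, without overlap. Its log2 ratio was 0.54 (adjusted p = 0.933 in limma), and without control 3 the ratio was 0.33. Ccna2 had means of 1.66 ± 0.193 and 1.83 ± 0.315 FPKM (SD, n = 3 per group) in overlapping groups.

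The mitotic kinases and the spindle checkpoint gave values in both directions. Aurkb, the kinase of the chromosomal passenger complex, was at 4.23, 5.27 and 2.46 FPKM in control and 2.34, 4.05 and 2.86 FPKM in model samples. The groups overlapped, with a log2 ratio of -0.37 that was -0.12 without control 2. Ttk, the kinase that starts the checkpoint at unattached kinetochores, was at 0.124, 0.124 and 0.271 FPKM in control and 0.286, 0.249 and 0.274 FPKM in model samples. The model samples lay close together, and control 3 lay among them. The log2 ratio of Ttk was 0.64, and without control 3 it was 1.12 and passed the thresholds of the study, although its adjusted p in limma was then 0.9999.

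Bub1b, which encodes the checkpoint protein BubR1, had the lowest log2 ratio of the set, -0.76, from 0.716, 1.07 and 2.45 FPKM in control and 1.01, 0.708 and 0.782 FPKM in model samples. Control 3 stood above the other 5 samples, which overlapped, and without it the ratio was -0.10. Most of that value was a 269-base assembled fragment inside an intron, at 1.82 FPKM in control 3. The annotated transcript had means of 0.481 and 0.525 FPKM and a log2 ratio of 0.13, in the opposite direction. Plk1, which acts from centrosome maturation to cytokinesis, was at 1.06, 0.943 and 0.994 FPKM in control and 0.921, 0.931 and 1.86 FPKM in model samples, so that model 3 stood apart. Means in control and model samples were 1.23 ± 0.385 and 1.49 ± 0.396 FPKM for the centrosomal kinase Aurka, and 0.770 ± 0.191 and 0.762 ± 0.177 FPKM for the checkpoint kinase Bub1 (SD, n = 3 per group). All 3 of these kinase genes overlapped between the groups.

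At the kinetochore, Ndc80 and Nuf2 are subunits of the complex that binds microtubules. Ndc80 (chromosome 9, 119839016 to 119871382) was at 0.396, 0.302 and 0.301 FPKM in control and 0.416, 0.574 and 0.598 FPKM in model samples, without overlap, although control 1 and model 1 differed by little. Its log2 ratio was 0.67, and the limma log2 fold change of 0.20 had an interval from 0.01 to 0.38 (adjusted p = 0.933, unadjusted 0.0388). Over 14 alternative settings its unadjusted p lay between 0.0206 and 0.107 and was at or below 0.05 in 5, and its adjusted p was at least 0.820. With the sum weighted by transcript length the log2 ratio of Ndc80 was 0.51. Ndc80 transcript ENSRNOT00000080498 had control and model means of 0.298 and 0.328 FPKM, in overlapping groups. The less abundant ENSRNOT00000018644 had means of 0.0345 and 0.201 FPKM, without overlap, from a mean of 11.6 estimated reads per sample. Nuf2 had means of 0.309 ± 0.118 and 0.336 ± 0.0297 FPKM (SD, n = 3 per group), in overlapping groups.

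Cenpe was at 0.303, 0.136 and 0.265 FPKM in control and 0.164, 0.204 and 0.137 FPKM in model samples, with a log2 ratio of -0.48. Cenpf, a large protein of the outer kinetochore, was at 0.550, 0.623 and 0.704 FPKM in control and 0.541, 0.614 and 0.365 FPKM in model samples, with a log2 ratio of -0.30. Both overlapped between the groups. In the chromosomal passenger complex, Birc5, which encodes survivin, was at 0.544, 0.483 and 0.0916 FPKM in control and 0.700, 0.515 and 0.795 FPKM in model samples. Its log2 ratio of 0.84 was the highest of the set (adjusted p = 0.933 in limma) and was 0.38 without control 3, in which Birc5 was lowest. That control 3 value came from an estimated 3.91 reads. Cdca8, which encodes borealin, was at 5.03, 1.53 and 2.38 FPKM in control and 4.41, 3.12 and 2.04 FPKM in model samples, and 77% of it came from assembled fragments. In the annotated Cdca8 transcript alone the means were 0.729 and 0.675 FPKM.

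Spindle and cytokinesis genes held the smallest p of the set. Prc1 (chromosome 1, 142087208 to 142108746) encodes the bundler of antiparallel microtubules in the central spindle. It was at 2.66, 2.61 and 3.32 FPKM in control and 4.15, 4.17 and 3.63 FPKM in model samples, and the lowest model sample lay above the highest control sample. The means were 2.86 ± 0.398 and 3.98 ± 0.304 FPKM (SD, n = 3 per group), the log2 ratio was 0.48, and the limma log2 fold change of 0.37 had an interval from 0.06 to 0.68 (adjusted p = 0.933, unadjusted 0.0266). Part of the Prc1 sum was a 374-base assembled fragment in an intron. For the annotated transcript alone the means were 2.19 ± 0.209 and 2.69 ± 0.197 FPKM, still without overlap, with a log2 ratio of 0.30 (adjusted p = 0.972 in the limma fit limited to annotated transcripts). Over 15 alternative settings the unadjusted p of Prc1 lay between 0.0110 and 0.148 and was at or below 0.05 in 8, and its adjusted p was at least 0.820.

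The chromokinesin Kif4a was at 4.18, 4.69 and 3.43 FPKM in control and 3.80, 3.59 and 4.08 FPKM in model samples, which lay inside the range of the controls. Of the other motors, the means in control and model samples were 3.81 ± 0.953 and 3.60 ± 0.206 FPKM for Kif20a, 1.86 ± 0.276 and 2.07 ± 0.340 FPKM for Kif23, and 0.636 ± 0.0432 and 0.660 ± 0.0625 FPKM for Kif11, which pushes spindle poles apart (SD, n = 3 per group). The replicates of Kif11 lay close together, and its interval on the limma scale ran from -0.16 to 0.20. Means were 0.768 ± 0.162 and 1.01 ± 0.164 FPKM for Tpx2, the activator of Aurora A, 0.861 ± 0.168 and 0.980 ± 0.231 FPKM for the contractile ring protein Anln, 0.768 ± 0.0562 and 0.977 ± 0.288 FPKM for Racgap1, the partner of Kif23 in centralspindlin, and 0.291 ± 0.0704 and 0.355 ± 0.149 FPKM for the spindle protein Hmmr. All of these overlapped between the groups.

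The anaphase-promoting complex ends mitosis by marking cyclin B and securin for degradation. Its activator Cdc20 was at 1.89, 1.93 and 2.45 FPKM in control and 3.15, 2.44 and 2.25 FPKM in model samples, which overlapped through control 3. Its ubiquitin-conjugating enzyme Ube2c was at 0.350, 0.180 and 0.747 FPKM in control and 1.37, 0.124 and 0.570 FPKM in model samples. Model 1 was the highest and model 2 the lowest of all 6, so the log2 ratio of 0.70 became -0.29 without model 1.

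The markers most used to count dividing cells are Ki-67 and topoisomerase II alpha. Mki67 (chromosome 1, 207988618 to 208020454) was at 4.62, 5.23 and 5.40 FPKM in control and 5.19, 4.56 and 4.58 FPKM in model samples, with overlapping groups. Its mean was slightly lower in the model, at 4.78 ± 0.357 against 5.08 ± 0.406 FPKM (SD, n = 3 per group), and the 95% interval of the limma log2 fold change ran from -0.34 to 0.20. Top2a was at 1.56, 1.56 and 1.82 FPKM in control and 1.96, 1.69 and 2.03 FPKM in model samples. The groups of Top2a overlapped through control 3, with an interval from -0.15 to 0.40 around a limma log2 fold change of 0.13. Only 46.7% of the Mki67 sum came from the annotated transcript, and the rest from an assembled transcript that overlaps its 3′ part. For the annotated one the means were 2.35 ± 0.200 and 2.25 ± 0.281 FPKM.

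Values also differed by library. Model 3 held the highest value of 16 of the 41 genes (39.0%), against 23.6% of all genes tested. Control 2 held the highest value of 2 (4.88%, against 13.1%) and the lowest of 11 (26.8%, against 16.1%). The 16 genes highest in model 3 were Cdt1, Mcm2, Mcm3, Mcm5, Mcm6, Mcm7, Rrm2, Ccna2, Plk1, Ndc80, Birc5, Kif11, Tpx2, Anln, Racgap1 and Top2a. Of the 6 helicase subunits, 5 are among them, Mcm7 only through an assembled transcript. That transcript was at 3.42 FPKM in model 3 and at 0.712 to 2.26 FPKM elsewhere. The annotated Mcm7 transcript was highest in control 3, at 7.17 FPKM, against 7.06 FPKM in model 3. The FPKM of Mcm2 to Mcm7 summed to between 21.5 and 22.0 in the 3 control samples, to 21.5 and 20.9 in model 1 and model 2, and to 28.3 in model 3. The group means of this sum were 21.7 ± 0.243 and 23.5 ± 4.13 FPKM (SD, n = 3 per group). All of these sums include the assembled Mcm7 transcript. By the summed values Mcm4 was the exception among the 6 subunits, at 3.61 FPKM in model 3 and 4.29 FPKM in control 1, its highest sample.

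The pattern of model 3 did not reach the whole set. Over the 10 genes of licensing and G1/S, the median log2 deviation of model 3 from the mean of the 6 samples was 0.35, with the other 5 libraries between -0.11 and -0.01. Over the 6 mitotic kinases and checkpoint genes model 3 was at -0.22, and over the 6 genes of the kinetochore and passenger complex at -0.19. Ccne2, Pcna, Bub1, Cenpf and Hmmr had their lowest value in this library. For Pcna this held for the sum only. Its annotated transcript was at 10.0 FPKM in model 3 and lowest in model 1, at 8.78 FPKM. Model 3 also differed in tissue markers. It held 5.11 FPKM of the cardiac myosin gene Myh6, against 0 to 0.0339 FPKM in the other 5 samples, and the summed FPKM of 3 smooth muscle markers was 133.3 in it, against 77.1 to 103.2 elsewhere. The part of these differences in the values of the cell cycle genes was not tested.

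**Figure D4:**
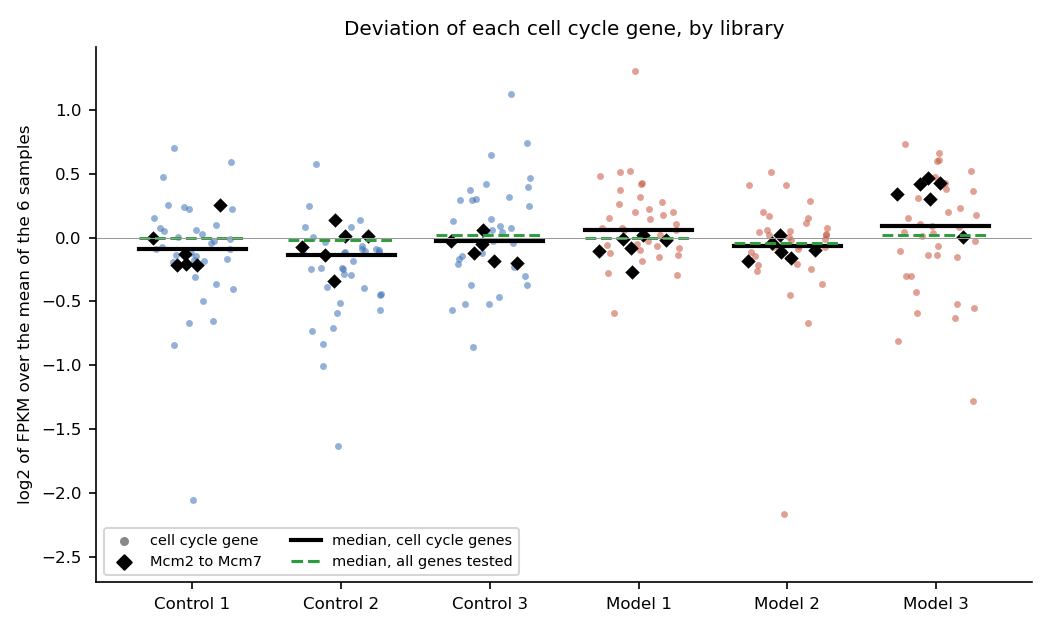
log2 of the FPKM over the mean of the 6 samples for each of the 41 genes in each library, with Mcm2 to Mcm7 as black diamonds, the median of the set as a black line and the median of all genes tested as a dashed green line. In model 3, 5 of the 6 helicase subunits have their highest value, Mcm7 only through an assembled transcript, while other genes of the set lie on both sides of 0.

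Marker lists of other cell types are given beside these values because dividing cells of several types contribute to them. The 5 fibroblast markers summed to between 290.3 and 308.5 FPKM in control and between 314.4 and 407.8 FPKM in model samples, without overlap. Most of the sum was collagen, and Col3a1 had means of 168.5 and 208.3 FPKM in control and model samples, whereas the means were 26.1 and 24.9 FPKM for Pdgfra and 14.0 and 12.6 FPKM for Dcn, in overlapping groups. Summed FPKM overlapped between the groups for T and NK cell markers (14.0 to 22.0 and 15.7 to 21.4), for B and plasma cell markers (40.2 to 48.8 and 28.4 to 56.1), for macrophage markers (42.3 to 66.9 and 48.0 to 73.0) and for neutrophil markers (10.1 to 15.0 and 9.73 to 12.2). The macrophage minima, 42.3 in control 3 and 48.0 in model 2, came from the libraries in which Cd68 was far lower than elsewhere. Without Cd68 the macrophage sum was narrowly higher in each model sample than in each control sample. Each of the remaining macrophage genes overlapped between the groups when taken alone. The alveolar type 2 list, at 4244 FPKM or more in each sample, marked the tissue as lung, and the thymocyte genes Rag1 and Rag2 were at 0.0265 FPKM or less in each sample. Of the 15 lists, the summed levels of the fibroblast and cardiac muscle lists were apart between the groups. Those of the other 13 overlapped, the macrophage list only with Cd68 included. The cardiac muscle sums were near 0 outside model 3, at 0.107, 0 and 0 FPKM in control and 0.167, 0.188 and 5.26 FPKM in model samples. No gene of the lists passed the adjusted test with limma, and 2, Col3a1 and the cardiac peptide gene Nppa, had unadjusted p at or below 0.05. Nppa was at 0.167 FPKM or less in each sample. The part of cell composition in the values of the cell cycle genes was not tested.

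The third question was whether a change could be hidden in the isoforms that were summed. The 41 genes held 64 transcripts, of which 53 were annotated and 62 were tested. Of 62 transcripts, 0 passed an adjusted p below 0.05 in limma (0.0277% of 64867 transcripts did), 4 had unadjusted p at or below 0.05 (6.45%, against 4.53% of all) and 3 passed the thresholds of the study (4.84%, against 2.98%). The unadjusted p of the 4 lay between 0.0292 and 0.0471, and the adjusted p was 0.945 for each. Of these, 2 belong to Kif4a and moved against each other. Kif4a transcript ENSRNOT00000078233, with 31 exons, was at 2.16, 2.02 and 2.14 FPKM in control and 0.280, 0 and 1.72 FPKM in model samples. Transcript ENSRNOT00000003789, with 30 exons, was at 0.661, 0.593 and 0 FPKM in control and 2.15, 2.30 and 0.666 FPKM in model samples. Their values did not overlap between the groups, in opposite directions, while the annotated sum was 2.53 ± 0.347 and 2.37 ± 0.0642 FPKM (SD, n = 3 per group). In model 3 the 31-exon transcript led, as in the controls.

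Tpx2 transcript ENSRNOT00000088481, with 18 exons, was at 0, 0.452 and 0 FPKM in control and 1.04, 0.390 and 0.879 FPKM in model samples. The groups overlapped through control 2. In the other annotated Tpx2 transcript the values were 0.631, 0.274 and 0.947 FPKM in control and 0, 0.447 and 0.281 FPKM in model samples. An assembled 464-base transcript of Cdca8 was at 0.671, 0.493 and 0.786 FPKM in control and 1.01, 1.74 and 1.07 FPKM in model samples, with a log2 ratio of 0.97, just under the threshold of 1.

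Values at 0 beside values near 2 FPKM for isoforms that share most of their exons also occurred within a group. Cdk1 transcript ENSRNOT00000000783 was at 2.51, 0 and 2.22 FPKM in control and 2.50, 2.01 and 0.525 FPKM in model samples, and its partner ENSRNOT00000081113 took 1.44 FPKM in control 2 and 1.79 FPKM in model 3. For Aurkb, ENSRNOT00000008492 was at 4.17 FPKM in control 2 and between 0.403 and 0.842 FPKM in the other 5 samples. Of the 12 genes of the set with 2 annotated transcripts, 8 had a different leading transcript in different libraries, and of 3098 genes tested with 2 annotated transcripts, 42.8% did.

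**Figure D5:**
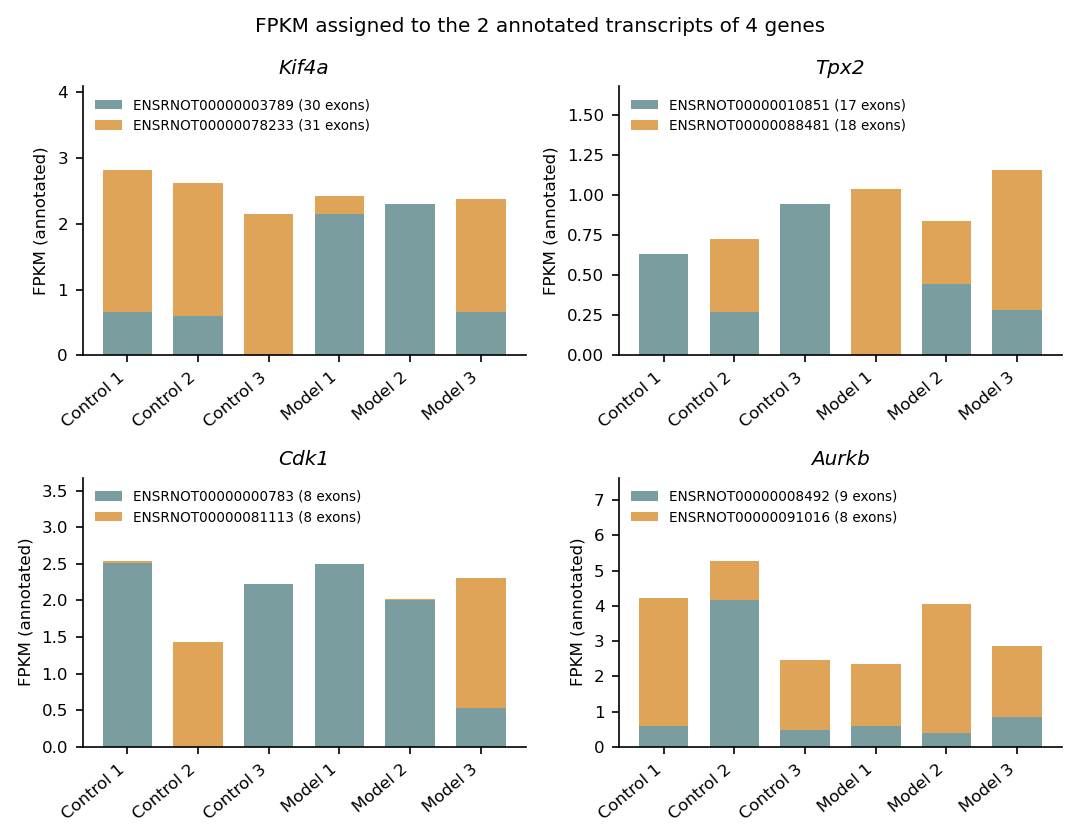
FPKM assigned to the 2 annotated transcripts (stacked colours) of Kif4a, Tpx2, Cdk1 and Aurkb in each library. For Kif4a the 31-exon transcript leads in the 3 control samples and model 3 and the 30-exon transcript in model 1 and model 2, whereas for Cdk1 and Aurkb the libraries that differ come from both groups or from the controls.

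Few reads came from circular RNAs of the set. Back-splice reads were found for 7 circRNAs of 6 genes (Kif11, Ndc80, Cdk1, Top2a, Kif20a and Bub1b), with 8 reads in all, 5 in control and 3 in model samples, of library totals between 2037 and 2964. The share of genes with a circRNA was 14.6% in the set and 14.7% among all genes tested. With at most 3 reads per gene over the libraries, no difference between groups was detectable at this depth.

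The wider cell cycle machinery was described with 6 lists of 109 further genes, of which 106 were found and tested (Cdkn2d, Chek1 and Nek2 were not analysed here). None of the 106 passed an adjusted p below 0.05 in limma or the thresholds of the study, and 3 had unadjusted p at or below 0.05 (2.83%, against 4.91% of all genes tested). These were Tk1, the salvage kinase for thymidine, at 1.87 ± 0.0891 and 2.68 ± 0.310 FPKM, Cdca3 at 0.485 ± 0.0779 and 0.722 ± 0.105 FPKM and Cdca5, the cohesin regulator sororin, at 0.237 ± 0.0156 and 0.381 ± 0.0821 FPKM, in control and model samples (SD, n = 3 per group, adjusted p of at least 0.933 in limma). Each model sample lay above each control sample in 7 of the 106 genes (6.60%), namely Tk1, Cdca3, Cdca5, Cdc45, Lig1, Ncapg and Lin52, and below in 6 (5.66%), namely Cdkn3, Rfc5, Atr, Spc25, Cenpa and Cdc27. The background was 4.82% and 5.87%. Model means were higher for 57 of the 106 genes (53.8%), and the median log2 ratio was 0.02.

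By list, the 8 G1 cyclins and CDKs were the most abundant, with a median of the mean FPKM of 15.9, and the 39 other mitotic genes the least, at 1.27. Among the G1 cyclins and CDKs the extremes were Ccnd1, which encodes cyclin D1, at 33.6 ± 3.75 and 38.0 ± 5.63 FPKM, and Ccnh at 6.43 ± 0.189 and 5.45 ± 1.18 FPKM (SD, n = 3 per group). Among 10 CDK inhibitors and pocket proteins, the log2 ratio was -0.43 for Cdkn3, and Cdkn2a, which encodes the inhibitor p16, was at 0.105, 0 and 0.0585 FPKM in control and 0.208, 0 and 0.310 FPKM in model samples, in overlapping groups. Of the 16 E2F and MuvB factors, the largest log2 ratios were those of E2f8 (0.74) and Lin52 (0.50). Of the 8 checkpoint kinases and Cdc25 genes, the largest were those of Atr, the kinase of replication stress (-0.50), and Chek2 (-0.37). Of the other replication genes, the histone-binding protein Uhrf1 had a log2 ratio of -1.06 that came from control 3, at 5.96 FPKM against 0.922 to 1.35 FPKM in the other 5 samples. Only 53.7% of the Uhrf1 sum came from annotated transcripts. Their control and model means were 0.835 and 1.28 FPKM, with a log2 ratio of 0.62 in the opposite direction. Of the other mitotic genes, the largest were those of the kinetochore subunit Spc24 (-0.83) and Cdca5 (0.68).

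Model 3 held the highest value of 34 of the 106 genes (32.1%), against 23.6% of all genes tested, and model 1 of 23 (21.7%, against 14.1%). Model 2 held the highest value of 1 (0.943%, against 12.1%). Control 2, which held few of the highest values in the set of 41, held 18 of them here (17.0%, against 13.1%).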

How the data were processed

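RNA of 6 rat lungs, 3 control and 3 model, was grouped by the labels. Per the methods of the authors, Cutadapt served for trimming, Bowtie2 and Tophat2 for mapping and StringTie for assembly and merging, and the authors deposited FPKM per transcript from StringTie and Ballgown. The authors also deposited per-base coverage, from which reads were estimated as coverage times transcript length over 150 bases. Back-splice reads found with CIRCexplorer were deposited as raw counts per circRNA, and a normalized value that was not used here. The genome build is not given in the sources used here.

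FPKM were summed per gene name, and 10494 transcripts without a name were left out. Genes and transcripts above 0 in at least 3 of 6 samples were tested on log2(FPKM + 1) with limma 3.58.1 (trend, two-sided, R 4.3.3) and Benjamini-Hochberg adjustment over all features tested. Summing favours assembled fragments, and FPKM hide depth, so low genes are less precise. The script was tested on simulated data. Samples are separate rats. The main fit was planned without a block. Deviations of same-numbered samples correlated at 0.0647, 0.0276 and -0.0784, which cannot show or exclude pairing with so few samples. The members, lists and promoter words were chosen with earlier results of these data known. All members are named, with values in every sample for those with an unadjusted p of at most 0.05, the 6 highest and 6 lowest log2 ratios, the most abundant of each role, Mki67, Top2a and Cdk1. Of other lists, genes past a threshold and the 2 largest ratios per list are named. Values in every sample for Cdt1 and Mcm2, the genes named beside the circRNA counts, library and marker patterns, and the isoforms of Ndc80, Cdk1 and Aurkb were chosen after the values were seen. Alternatives were other sums, pseudocounts, filters and scalings, a fit without trend, the replicate number as a block, and 6 fits that leave out a sample.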

Additional observations from a re-analysis of the deposited data

How the results depend on the processing

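No gene of the set had an adjusted p below 0.05 under any of the 15 alternatives, and the lowest adjusted p was 0.820. Of 599 log2 ratios of single genes under alternatives, 69 moved by more than the SD between replicates and 39, of 19 genes, took the opposite sign. The count of all genes with an adjusted p below 0.05 (2) was 7 with annotated transcripts only, and leaving out each sample in turn gave 1 to 4. Leaving out each sample gave 0 to 1 genes of the set past the thresholds of the study, the 1 being Ttk without control 3. The 18 transcripts with an adjusted p below 0.05 became 36 with a pseudocount of 0.1 and 0 to 16 with a sample left out. The 3 transcripts of the set past the thresholds of the study became 1 with a mean FPKM of at least 1 and 1 with a pseudocount of 0.1, and lay between 1 and 3 with a sample left out. The cause of these shifts was not tested. Low depth limits the 12 genes below 1 FPKM in each sample.

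With the replicate number as a block, 0 genes and 0 transcripts had an adjusted p below 0.05. The labels do not say whether the numbers pair the samples. Same-numbered samples correlated at 0.0647, 0.0276 and -0.0784, which cannot exclude a shared batch with so few samples. The block leaves fewer degrees of freedom. Under the block the unadjusted p in limma was 0.0671 for Prc1 and 0.0867 for Ndc80, and 2 transcripts of the set passed the thresholds of the study. Over all genes tested, 143 genes higher and 169 lower in the model passed these thresholds under the block, against 130 and 168 without it. No gene of the set was among them.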
